A study of Mus musculus with 60 samples.

Results

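The 10 genes of Notch signalling described here were chosen by symbol and read in every group of the study: the receptors Notch1, Notch2, Notch3 and Notch4, the ligands Dll1, Dll4, Jag1 and Jag2, and the target genes Hes1 and Hey1. Each of the 10 was found in both count tables, out of 56980 gene identifiers per table. The study asked what brief induction of reprogramming factors, and inhibition of TGFb receptors, do to Ercc1-deficient fibroblasts. RNA was sequenced from 60 libraries, 3 in each of 20 groups. All came from cultured mouse fibroblasts. The paper's methods give a C57BL6J and FVB hybrid background for the Ercc1 mice and their controls, and name none for the line with Oct4-GFP.

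The reprogramming table held 36 libraries of tail tip fibroblasts. The D/KO cells were 4FJ_ERCC1_(d/-), male and 8 weeks old, with a hypomorphic and a null Ercc1 allele. The WT cells were 4FJ_(+/-)_OCT4-GFP, from a female of 22 weeks, so genotype, line, sex, age and the Oct4-GFP allele cannot be told apart. Both carry a doxycycline-driven cassette of Oct4, Klf4, Sox2 and c-Myc at Col1a1 and the rtTA activator at Rosa26. Doxycycline (2 µg/ml) was given for 0, 2 or 4 days, alone or together with VC, the mixture of ascorbic acid (50 µg/ml) and CHIR99021 (3 µM), an activator of Wnt signalling through GSK3 inhibition. The groups named day 0 plus VC had VC and no doxycycline.

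The inhibitor table held 24 libraries of 8 groups. Its D/KO cells were ERCC1_(d/-) from a female of 4 weeks, untreated or treated for 3 days with Repsox or Vactosertib at 0.1 µM, or with DMH-1 or A83-01 at 1 µM. Repsox and A83-01 inhibit ALK5, the type I TGFb receptor, and DMH-1 inhibits the BMP receptor ALK2. Vactosertib is described by the study as acting on both receptors, and is counted below among the ALK5 inhibitors for its action on ALK5. Its controls were ERCC1_(+/+) tail tip and skin fibroblasts from a female of 14 weeks, and the last group, called WT 4F TGFB, was the 4FJ_(+/-)_OCT4-GFP line with a treatment labelled TGFB. What that treatment was is not given in the sources used here, so its values are levels only. RNA was extracted in triplicate and no source says that the libraries of a group were separate cultures, so p-values measure only the spread between these libraries.

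Notch receptors are membrane proteins cut by ADAM proteases and gamma-secretase when a Delta-like or Jagged ligand on a neighbouring cell binds them. The freed intracellular domain joins RBPJ and Mastermind on DNA and activates genes such as Hes1 and Hey1, which encode basic helix-loop-helix repressors. NOTCH1 and NOTCH2 are found in many cell types, NOTCH3 is known from mural cells and fibroblasts, and NOTCH4 and DLL4 are known from endothelial cells, where DLL4 guides sprouting and arterial fate. JAG1 is used in mesenchymal, vascular and epithelial tissue, JAG2 in epithelia and limb bud, and DLL1 in somites and muscle.

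The promoter stretches of Notch3, Notch4 and Dll4 are shown because these receptors and this ligand moved in opposite directions under ALK5 inhibitors. They come from the RefSeq promoter table and were placed on GRCm39 by exact match, each running up to the first base of the deposited or the GENCODE M39 gene model, whichever lies further upstream. The table matched 8 of the 10 genes. Capitals mark CAGAC or its reverse complement, letters that SMAD proteins of the TGFb pathway bind.
Notch3, chr17:32385894-32386114, minus strand: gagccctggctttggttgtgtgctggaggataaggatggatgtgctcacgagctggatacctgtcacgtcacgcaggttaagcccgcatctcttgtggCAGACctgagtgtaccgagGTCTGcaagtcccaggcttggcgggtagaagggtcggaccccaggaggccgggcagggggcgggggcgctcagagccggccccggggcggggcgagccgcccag
Notch4, chr17:34783019-34783219, plus strand: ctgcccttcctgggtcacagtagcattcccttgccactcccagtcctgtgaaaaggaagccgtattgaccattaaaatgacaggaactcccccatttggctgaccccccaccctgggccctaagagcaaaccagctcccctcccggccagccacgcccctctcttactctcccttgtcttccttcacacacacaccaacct
Dll4, chr2:119156015-119156169, plus strand: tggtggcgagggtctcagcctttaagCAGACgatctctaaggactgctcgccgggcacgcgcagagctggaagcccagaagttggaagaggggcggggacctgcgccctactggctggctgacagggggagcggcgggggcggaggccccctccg
Searched on both strands, CAGAC occurred 2 times in the Notch3 stretch, 0 times in that of Notch4 and 1 time in that of Dll4. It occurs in 38.6%, 36% and 29.5% of 32841 promoter windows of these lengths. The full 250 bases before the Dll4 RefSeq start held 3 copies. Those 38 and 34 bases before that start lie within the GENCODE M39 gene model, and so outside the stretch shown. The RBPJ core TGGGAA occurred in none of the stretches, and in 19.4%, 18% and 14.3% of windows of these lengths. These matches are letters only and say nothing of binding.

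Each library held 16538374 to 18484951 counts (reprogramming) or 17102639 to 30599138 counts (inhibitors). Ercc1, whose hypomorphic allele still gives a transcript, was lower in D/KO than in WT cells at day 0 (log2 fold change -0.54 ± 0.16 SE, edgeR adjusted p = 0.0083) and was not called between the inhibitor table's controls (0.21 ± 0.16, edgeR adjusted p = 0.32). As a sign of RNA quality, the balance of counts between long and short transcripts (log2 scale) was -0.72 in skin replicate 1 and -0.44 in Repsox replicate 2, against -0.31 to 0.72 in the rest of that table. In the reprogramming table it was 0.0108 in WT day 2 replicate 2 and 0.0535 in D/KO day 4 replicate 2, the libraries with the least Notch1 and Notch2 of their groups, and 0.247 to 1.11 in the rest. It was 0.51 to 0.77 at WT day 0, 1.02 to 1.05 at WT day 4 and 0.789 to 1.11 at WT day 4 plus VC.

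Sums of the 6 fibroblast markers were high in every library, at 19046 to 223020 CPM in the reprogramming and 24773 to 116620 CPM in the inhibitor table. These sums are mostly the collagen genes Col1a1 and Col1a2, so they follow those genes more than the rest of the list. In D/KO reprogramming libraries Col1a1 reached 164560 CPM and Col1a2 54862 CPM, and Pdgfra at most 748 CPM. CPM are counts scaled by TMM-adjusted library size. In D/KO reprogramming libraries the 6 endothelial markers (Pecam1, Cdh5, Kdr, Tek, Emcn and Vwf) summed to 587 to 711 CPM at day 0. In WT libraries Pecam1, Cdh5, Kdr and Emcn were each at most 0.67 CPM, and Kdr was at 0 in 15 of 18 libraries. Tek carried nearly all of the WT sum, which was 14.8 to 17.7 CPM at day 0 and reached 116 CPM at day 4 plus VC. The mural marker sum, mostly Cspg4 and Mcam, was 205 to 218 CPM at D/KO day 0, 40.3 to 46.5 CPM at D/KO day 0 plus VC and 20.9 to 23.2 CPM at WT day 0, while Rgs5 was at most 10.2 CPM and Kcnj8 at 0 in all 18 WT libraries. The keratinocyte sum was 2.06 to 3.35 CPM at D/KO day 0 and 291 to 427 CPM at D/KO day 4 plus VC, nearly all Krt14, with Krt5 at most 0.67 CPM. Macrophage markers summed to at most 44.2 CPM, melanocyte markers to at most 4.38 and skeletal muscle markers to at most 0.68 CPM in any library. Fewer cells of a type and less RNA per cell cannot be told apart in these bulk libraries.

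Per kilobase of exon, the scale on which different genes can be compared, the receptor pool of D/KO cells at day 0 was mixed and that of WT tail tip cells was mostly Notch2. At D/KO day 0 Notch2 stood at 12.2 CPM per kb, Notch4 at 9.87, Notch3 at 9.27 and Notch1 at 5.87. At WT day 0 Notch2 stood at 13.4 CPM per kb, Notch3 at 3.28, Notch1 at 2.13 and Notch4 at 0.0867. Notch4 was thus 26.6% of the summed receptor level in the untreated D/KO and 0.459% in the untreated WT line. The Notch2 share was 66.5% to 75.9% in the WT groups of the reprogramming table, and in D/KO cells it went from 32.7% at day 0 to 63.0% at day 4 and 66.2% at day 2 plus VC, and was 48.9% at day 4 plus VC, where Notch4 made up 34.2%. In WT skin cells Notch2 was 44.8%, Notch3 27.6% and Notch4 18.8% of the receptors. Jag1 was the most abundant ligand in every group, with 14.1 CPM per kb at D/KO day 0, ahead of Dll4 at 4.45. At WT day 0 it stood at 4.21, ahead of Dll1 at 0.637. Hes1 had the highest level per kilobase of the 10 genes in all groups except WT 4F TGFB, from 21.4 to 78.4 CPM per kb.

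**Figure D1:**
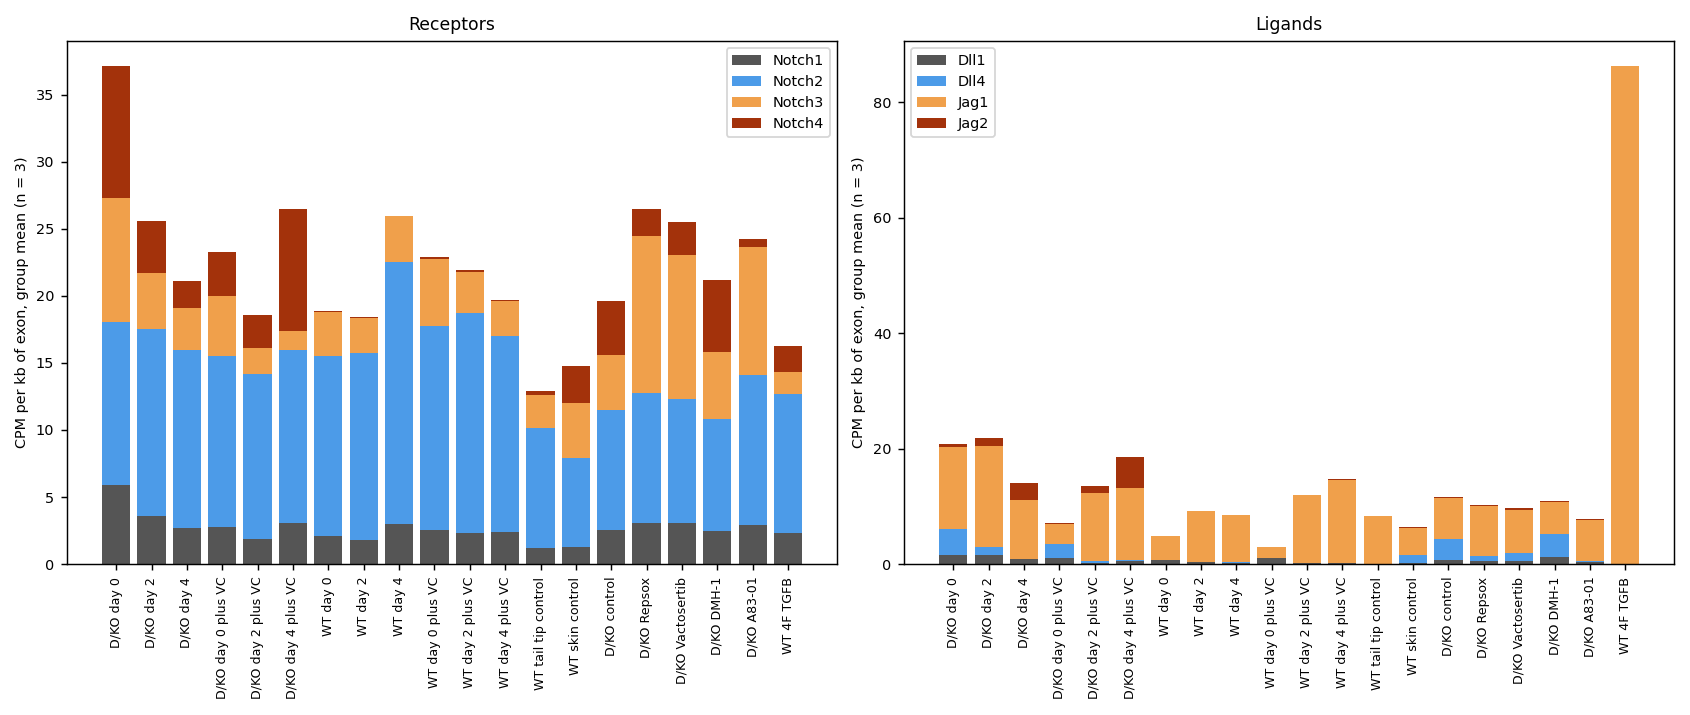
Stacked bars of the group mean level per kilobase of exon (CPM per kb, n = 3 libraries) of the receptors (left) and ligands (right) in all 20 groups. The tables were scaled separately. Notch2 makes up most of the WT receptor bars of the reprogramming table, Notch4 is visible in D/KO cells, WT skin cells and WT 4F TGFB, and the ligand bar of WT 4F TGFB is 99.9% Jag1.

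Before doxycycline, 7 of the 10 genes were higher in D/KO than in WT cells and none was lower, where 43.2% of all 15832 genes tested differed, 22.1% higher and 21.1% lower. Notch4 was 92.5, 67 and 79.3 CPM in the D/KO and 0.939, 0.698 and 0.46 CPM in the WT libraries at day 0. The groups lay far apart, with a fitted difference of 114-fold (log2 6.83 ± 0.26, edgeR adjusted p = 8.6e-22). Dll4 was 18.8, 16.5 and 16.1 CPM in D/KO libraries, while the WT libraries held 5, 0 and 8 counts. Jag2 was 5.93, 2.35 and 2.77 CPM against 0.387, 0.107 and 0.0511 CPM, which in the WT libraries is 7, 2 and 1 counts.

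The other 4 differences were smaller. Jag1 was 88.7, 91.9 and 66.4 CPM in D/KO and 23.1, 22.2 and 28.2 CPM in WT libraries, 3.35-fold apart (log2 1.74 ± 0.16, edgeR adjusted p = 2.8e-11). Notch1 was 2.76-fold, Notch3 2.83-fold and Dll1 2.58-fold higher. Dll1 shares 1369 exon bases with Fam120b on the other strand and the counting strand is not stated, so reads of the 2 genes cannot be told apart there. Notch2 (-0.14 ± 0.13), Hes1 (-0.22 ± 0.19) and Hey1 (-0.50 ± 0.50) were not called. Beside Notch4 and Dll4, 5 of the 6 endothelial markers were higher in these D/KO cells, with Pecam1 at a mean of 205 CPM against 0.142 CPM. Beside Notch3, all 5 mural markers (Rgs5, Kcnj8, Abcc9, Cspg4 and Mcam) were higher as well. The part of such cells in the results was not tested.

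**Figure D2:**
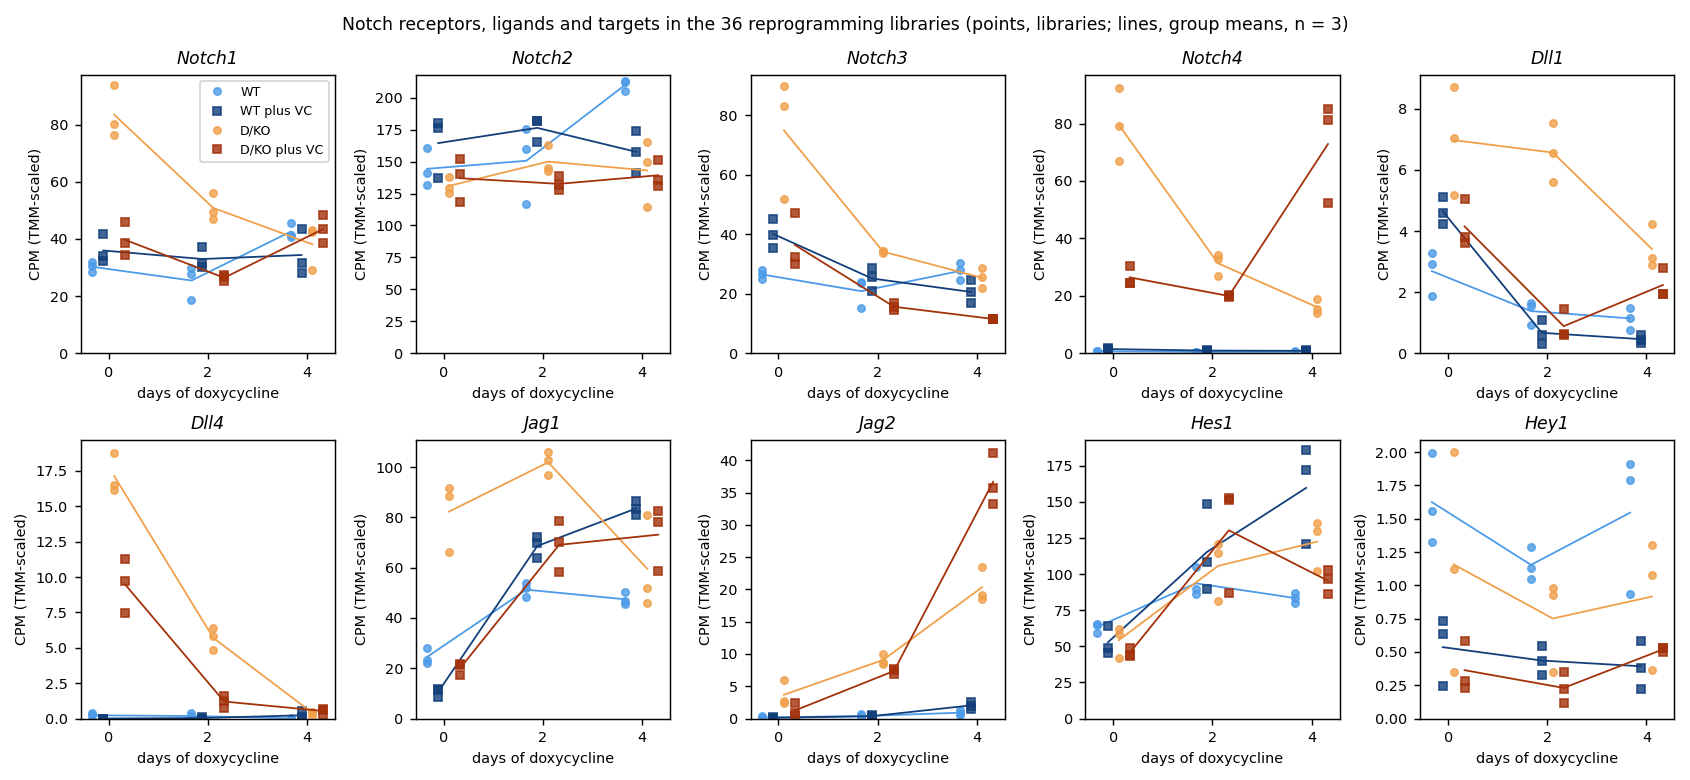
CPM of each of the 10 genes in the 36 reprogramming libraries (points) by days of doxycycline, with lines through group means (n = 3), for WT and D/KO cells without VC (circles) and with VC (squares). Notch4 and Dll4 lie near 0 in WT cells, Jag2 and Hes1 climb in D/KO cells, and D/KO Notch4 with VC returns to 52.4 to 85.1 CPM at day 4.

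With doxycycline alone, the 3 receptors that D/KO cells had in excess fell. At day 2, 2 of the 10 genes were higher and 4 lower than at day 0 (27.4% of all genes called, 14.3% higher and 13.2% lower), and at day 4, 2 were higher and 6 lower (37.0%, 18.3% higher and 18.7% lower). Both days are compared with the same 3 day 0 libraries. The median log2 change of the 10 at day 4 was -0.75, against 7.6e-05 over all genes.

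Notch4 fell to 34.3, 27 and 32.8 CPM at day 2 and to 15.5, 18.9 and 13.9 CPM at day 4, 4.95-fold below day 0 (log2 -2.31 ± 0.18, edgeR adjusted p = 4.5e-13). Notch3 fell from 89.8, 83.3 and 51.7 CPM to 28.7, 21.8 and 25.6 CPM (log2 -1.56 ± 0.18, edgeR adjusted p = 4e-09). Notch1 fell from 76.5, 80.2 and 93.8 CPM to 42.3, 29.1 and 43 CPM (log2 -1.13 ± 0.16, edgeR adjusted p = 2.6e-07). In each of these 3 genes, no day 4 library overlapped a day 0 library. The lowest day 4 Notch1 value is that of replicate 2, whose length balance was low, and without it the change was -0.97 (edgeR adjusted p = 1.1e-05). Notch2 stayed between 114 and 166 CPM in all D/KO libraries without VC and was not called (log2 0.13 ± 0.13 at day 4).

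Markers of other cell types moved with these receptors. Of the 6 endothelial markers, 3 were lower and Tek higher at D/KO day 2, and 4 were lower and Tek higher at day 4. At day 4 the log2 change was -2.34 ± 0.18 for Cdh5, -2.03 ± 0.19 for Emcn, -1.78 ± 0.23 for Kdr and -0.70 ± 0.14 for Pecam1, so that Cdh5 went from a mean of 279 to 55 CPM. Of the 5 mural markers, 2 were lower and 1 higher at day 2 and 3 lower and 1 higher at day 4, with a median log2 change of -2.72 at day 4. Mcam went from a mean of 95 to 14.4 CPM, while Cspg4 went from 104 to 358 CPM and took the mural sum to 344 to 406 CPM. Of the 6 fibroblast markers, 4 were lower and 1 higher at both days, and their sum went from 61137 to 90497 CPM at day 0 to 32742 to 33822 CPM at day 2 and 21959 to 22979 CPM at day 4. In WT cells 1 was higher and none lower at day 2, and 2 were higher and 2 lower at day 4. The part of endothelial, mural and fibroblast cells in these changes, and in those of the ligands below, was not tested.

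WT receptors gave other values. At day 2 none was called, and at day 4 Notch1 and Notch2 were higher. Notch2 went from 161, 132 and 141 CPM to 212, 213 and 206 CPM (log2 0.54 ± 0.13, edgeR adjusted p = 0.0016). Notch1 went from 32, 28.4 and 30.4 CPM to 40.8, 45.6 and 41.2 CPM (log2 0.49 ± 0.16, edgeR adjusted p = 0.02). These WT day 4 libraries are those with the highest transcript-length balance without VC. With that balance as a covariate, a fit chosen after the data were seen, the Notch1 change was 0.22 (edgeR adjusted p = 0.23). The Notch1 call was also lost without WT day 0 replicate 2 (0.078), WT day 0 replicate 3 (0.0502) or WT day 4 replicate 2 (0.075, edgeR adjusted p-values). Notch3 in WT cells was 26.5 ± 1.35 CPM (SD, n = 3) at day 0 and 27.7 ± 2.88 at day 4.

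Among the ligands, Dll4 showed the largest fall and Jag2 the largest rise. In D/KO cells Dll4 went from 18.8, 16.5 and 16.1 CPM to 5.87, 6.38 and 4.85 CPM at day 2 and 0.489, 0.209 and 0.486 CPM at day 4. The last of these are 9, 4 and 9 counts, 42.9-fold below day 0 (log2 -5.42 ± 0.48, edgeR adjusted p = 1.8e-11), in the libraries where 4 of the 6 endothelial markers were lower. Jag2 rose to 8.51, 9.92 and 8.78 CPM at day 2 and 19.2, 23.4 and 18.5 CPM at day 4, 5.56-fold over day 0 (log2 2.48 ± 0.33, edgeR adjusted p = 9.3e-08). In the same D/KO libraries 3 of the 4 keratinocyte markers tested were higher and none lower at both days, and their sum went from 2.06 to 3.35 CPM at day 0 to 13.6 to 22.4 CPM at day 2 and 42.3 to 57.3 CPM at day 4, mostly Krt14. Their part in the Jag2 rise was not tested. Dll1 fell at day 4 (log2 -1.03 ± 0.29, edgeR adjusted p = 0.0047).

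Jag1 behaved differently by genotype. In D/KO cells it was 106, 103 and 97 CPM at day 2, not called against day 0 (log2 0.31 ± 0.15), and 51.8, 45.9 and 80.8 CPM at day 4 (log2 -0.47 ± 0.15, edgeR adjusted p = 0.013). That last call was lost without D/KO day 0 replicate 1 or 2 or D/KO day 4 replicate 1 or 2 (edgeR adjusted p = 0.0585 to 0.128), and in a fit of these groups only (0.125). In WT cells Jag1 rose from 23.1, 22.2 and 28.2 CPM to 51.7, 48.3 and 53.8 CPM at day 2 (log2 1.06 ± 0.16, edgeR adjusted p = 6e-06) and stood at 46.6, 50.1 and 45.5 CPM at day 4. The difference between the genotypes' changes was -0.75 ± 0.22 at day 2 and -1.42 ± 0.22 at day 4 (edgeR adjusted p = 0.028 and 1.2e-05). The day 2 difference was lost in 7 of 12 fits that left out 1 library (edgeR adjusted p up to 0.077), while the day 4 difference kept its call in all of them.

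Both genotypes lost Dll1 and gained Jag2 transcript by day 4. In WT cells 4 genes were higher and 1 lower at day 4 (24.5% of all genes called, 11.7% higher and 12.8% lower), and 2 higher and none lower at day 2 (10.6%, 6.26% higher and 4.30% lower). WT Dll1 went from 34, 61 and 57 counts to 15, 22 and 27 counts (log2 -1.24 ± 0.34, edgeR adjusted p = 0.0057, and 0.0523 without WT day 4 replicate 1). WT Jag2 rose from 7, 2 and 1 counts to 16, 11 and 24 counts (edgeR adjusted p = 0.01), and the call was lost without WT day 0 replicate 2 (0.052), WT day 0 replicate 3 (0.065) or WT day 4 replicate 3 (0.07, edgeR adjusted p-values). Dll4 in WT cells had at most 9 counts in any library, so no fold is given for it there.

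Hes1, the target with the highest level, rose with doxycycline in D/KO cells, and Hey1 was not called. Hes1 was 58.9, 42.2 and 61.8 CPM at day 0, 121, 114 and 81.4 CPM at day 2 and 135, 130 and 102 CPM at day 4 in D/KO cells. The day 4 change was 2.26-fold (log2 1.17 ± 0.19, edgeR adjusted p = 3.6e-06), and no day 4 library overlapped day 0. WT Hes1 was 65.7, 59.6 and 64.8 CPM at day 0 and 86.4, 105 and 89.8 CPM at day 2 (log2 0.56 ± 0.19, edgeR adjusted p = 0.045). That WT call was lost in 5 of 6 fits that left out 1 library (edgeR adjusted p up to 0.2) and with the length balance as covariate (0.2). At WT day 4 the change of 0.40 ± 0.19 was not called.

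Hey1 was at low counts, with 6 to 39 counts per library in cells without VC. Its log2 changes at days 2 and 4 lay between -0.61 and -0.07, with standard errors of 0.48 to 0.52, and a change of that size was not detectable at this depth.

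At day 4 without VC, the genotypes' changes differed in 5 of the 10 genes, 1 in the positive and 4 in the negative direction, where 14.3% of all genes were called, 7.27% positive and 7.04% negative. At day 2 edgeR called only Jag1, in the negative direction (6.54%, 3.43% positive and 3.11% negative). DESeq2 called 2 genes there, both negative, and edgeR called 0 to 2 when 1 library was left out. The difference was -1.62 ± 0.22 for Notch1 (edgeR adjusted p = 1.8e-06), -1.63 ± 0.25 for Notch3 (1.2e-05), -1.72 ± 0.49 for Notch4 (0.013), -1.42 ± 0.22 for Jag1 and 0.78 ± 0.26 for Hes1 (0.042). The Notch4 difference was lost without WT day 4 replicate 2 (-1.21, edgeR adjusted p = 0.21), and WT Notch4 rests on 3 to 17 counts per library at these days. The Hes1 difference was lost in 9 of 12 fits that left out 1 library (edgeR adjusted p up to 0.13). In the same day 4 contrast 4 of the 6 fibroblast, 3 of the 5 mural and 1 of the 6 endothelial markers were called negative. None of these lists held a positive call, and their part in the differences was not tested.

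VC without doxycycline lowered Notch3 and Notch4 in D/KO cells and raised them in WT cells. In D/KO cells at day 0, 6 of the 10 were lower with VC and none higher (26.1% of all genes called, 12.1% higher and 14.0% lower), and in WT cells 3 were higher and 3 lower (29.4%, 15.1% higher and 14.4% lower). D/KO Notch4 fell from 92.5, 67 and 79.3 CPM to 24.3, 30.3 and 24.6 CPM (log2 -1.59 ± 0.18, edgeR adjusted p = 5.9e-09). D/KO Notch3 fell to 29.9, 47 and 32.4 CPM (log2 -1.04 ± 0.18, edgeR adjusted p = 1.6e-05) and D/KO Notch1 to 38.7, 45.9 and 34.5 CPM (log2 -1.07 ± 0.16, edgeR adjusted p = 1.6e-06). In each of the 3 genes the groups did not overlap.

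In WT cells Notch3 was instead higher with VC, at 35.3, 39.9 and 45.3 CPM against 25.1, 26.5 and 27.8 CPM (log2 0.60 ± 0.18, edgeR adjusted p = 0.0091), a call lost without WT day 0 plus VC replicate 3 (0.063). WT Notch4 went from 17, 13 and 9 counts to 20, 29 and 20 counts (edgeR adjusted p = 0.019), a call lost without WT day 0 replicate 3 (0.114) or WT day 0 plus VC replicate 2 (0.096). The difference between the VC effects was called for 5 genes, all negative (15.3% of all genes called, 6.93% positive and 8.35% negative). It was -2.66 ± 0.39 for Notch4, -1.64 ± 0.25 for Notch3, -1.32 ± 0.22 for Notch1, -1.53 ± 0.42 for Dll1 and -0.82 ± 0.23 for Jag1 (edgeR adjusted p from 9.7e-06 to 0.013). Beside D/KO Notch4, 5 of the 6 endothelial markers were lower and Vwf higher with VC at day 0, and their sum was 232 to 274 CPM. Beside D/KO Notch3, 3 of the 5 mural markers were lower, as were 3 of 5 in WT cells, where Notch3 was higher. Of the 6 fibroblast markers, 5 were higher and 1 lower with VC at D/KO day 0, and their sum went from 61137 to 90497 CPM without VC to 155400 to 223020 CPM with it. In WT cells 4 were higher and none lower. The part of these cells in the results was not tested.

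Jag1 and Hey1 were lower with VC at day 0 in both lines. Jag1 was 21.5, 17.2 and 21.1 CPM with VC in D/KO cells, 4.12-fold below cells without it (log2 -2.04 ± 0.16, edgeR adjusted p = 2.2e-12). In WT cells it was 8.66, 11.7 and 11.3 CPM, 2.33-fold below (log2 -1.22 ± 0.17, edgeR adjusted p = 6.5e-07). Hey1 had log2 changes of -1.62 in D/KO and -1.60 in WT cells (edgeR adjusted p = 0.036 and 0.022), from 6 to 39 counts to 3 to 11 counts per library. The D/KO Hey1 call was lost without D/KO day 0 replicate 1 or 3 or D/KO day 0 plus VC replicate 2 or 3 (edgeR adjusted p = 0.064 to 0.285). The WT call was lost without WT day 0 replicate 3 (0.0795) or WT day 0 plus VC replicate 2 (0.111). D/KO Jag2 was also lower with VC (log2 -1.52 ± 0.41, edgeR adjusted p = 0.0048), and lost its call without D/KO day 0 replicate 1 (0.087) or D/KO day 0 plus VC replicate 3 (0.051).

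**Figure D3:**
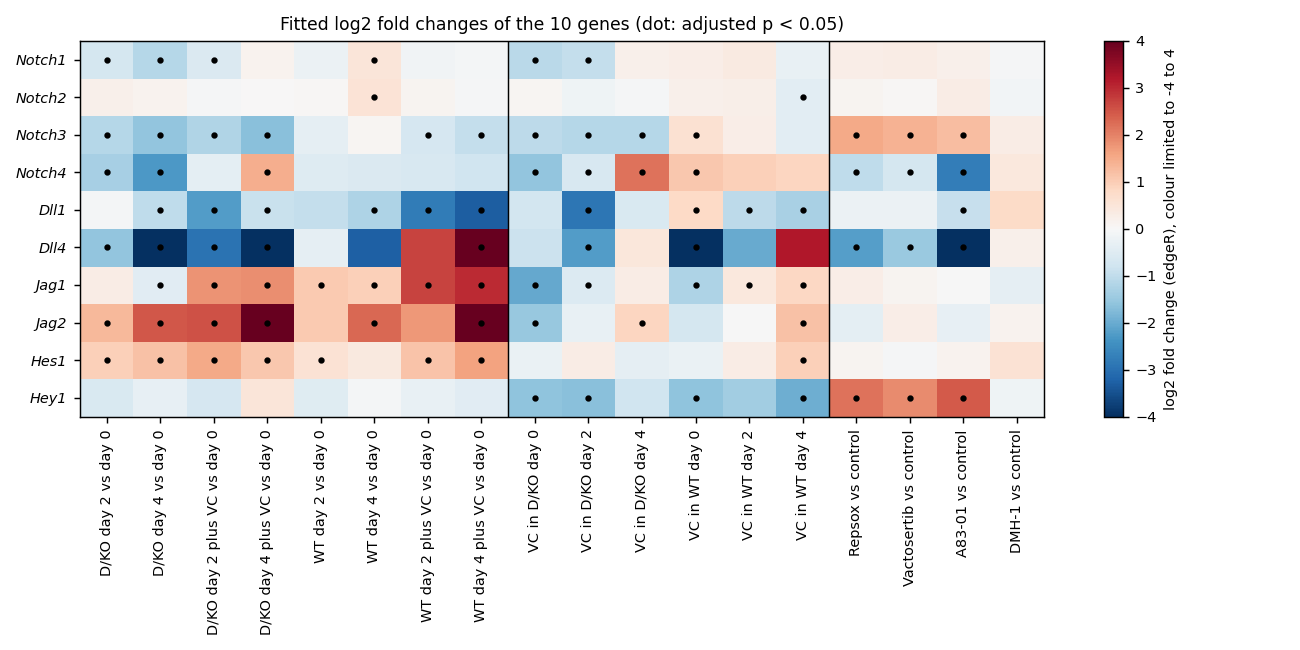
Heat map of the fitted log2 fold changes (edgeR) of the 10 genes (rows) in the changes from day 0, VC against no VC and each inhibitor against control (columns, separated by vertical lines), with a dot where adjusted p was under 0.05. Jag1 and Jag2 are red in all 4 changes from day 0 with VC, Notch3 is blue in all 4 D/KO changes and red under the ALK5 inhibitors, and the DMH-1 column holds no dot. The Dll4 colours of WT columns rest on 0 to 9 counts per library.

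Because VC alone moved several of these genes, changes within the VC arms start from another level than those without VC. The 6 genes called in D/KO cells started lower. In WT cells Jag1, Hey1 and, on 0 to 9 counts, Dll4 started lower and Notch3, Notch4 and Dll1 higher, the last with a call (log2 0.79 ± 0.30, edgeR adjusted p = 0.046) that was lost in 5 of 6 fits that left out 1 library. The Dll4 call was lost in 4 of 6 such fits (edgeR adjusted p = 0.057 to 0.11). Without WT day 0 replicate 3 only 2 genes were called. Against day 0 plus VC, 3 genes were higher and 4 lower at D/KO day 2 (47.4% of all genes called, 23.8% higher and 23.6% lower), and 4 higher and 3 lower at D/KO day 4 (54.1%, 27.9% higher and 26.2% lower). In WT cells 2 were higher and 2 lower at day 2 (27.5%, 13.8% higher and 13.7% lower), and 4 higher and 2 lower at day 4 (44.7%, 22.7% higher and 22.0% lower). These shares of the 10 genes are near or above the share of all genes, and all changes share the day 0 plus VC libraries of their genotype. Of the 6 fibroblast markers, 5 were lower and 1 higher at both D/KO days, with a sum of 155400 to 223020 CPM at day 0 plus VC and 19046 to 20116 CPM at day 4 plus VC, and 4 were lower and 2 higher at both WT days. Their part in the changes below was not tested.

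Jag1 rose in both lines. It was 78, 58.8 and 82.6 CPM at D/KO day 4 plus VC, 3.66-fold over day 0 plus VC (log2 1.87 ± 0.16, edgeR adjusted p = 2.7e-12), but against day 0 without VC its change was -0.17 (edgeR adjusted p = 0.36). In WT cells it was 83.3, 80.8 and 86.7 CPM, 7.93-fold over day 0 plus VC (log2 2.99 ± 0.17, edgeR adjusted p = 1.2e-16). With VC, the D/KO change in Jag1 was smaller than the WT change by 0.91 ± 0.23 on the log2 scale at day 2 and by 1.11 ± 0.23 at day 4 (differences of -0.91 and -1.11, with edgeR adjusted p of 0.0054 and 0.00031).

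Jag2 reached its highest level here. It was 41.1, 35.7 and 33.2 CPM at D/KO day 4 plus VC against 2.4, 0.904 and 0.421 CPM at day 0 plus VC (log2 4.85 ± 0.38, edgeR adjusted p = 2.3e-13), 28.8-fold apart. WT Jag2 went from 3, 2 and 0 counts to 26, 48 and 37 counts (edgeR adjusted p = 4.8e-06). The genotype difference in Jag2 was not called (log2 0.66 ± 1.26), with an error too wide to say that the changes were alike. Of the 4 keratinocyte markers tested, 2 were higher and 1 lower at both D/KO day 2 and day 4 plus VC, Krt14 being the one at a high level, and their part in the result was not tested.

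D/KO Notch4 turned within this arm. It was 20.4, 19.5 and 19.9 CPM at day 2 plus VC and 85.1, 81.1 and 52.4 CPM at day 4 plus VC (log2 1.46 ± 0.17 against day 0 plus VC, edgeR adjusted p = 6.4e-09). Against day 0 without VC the day 4 level was not called (log2 -0.13, edgeR adjusted p = 0.55). Pecam1 moved in the same way, from 72.9 to 247 CPM (group means). Cdh5, the endothelial cadherin, was lower at 70.8 CPM against 103, as were Emcn and Vwf, and Tek was higher, so the markers split 2 up and 3 down of 6. Dll4 did not return. It was 9.71, 11.3 and 7.44 CPM at day 0 plus VC and 0.687, 0.279 and 0.632 CPM at day 4 plus VC (log2 -4.13 ± 0.46, edgeR adjusted p = 1.9e-09). The part of endothelial cells in these values was not tested.

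Notch3 fell in all VC contrasts from day 0, to 11.6, 11.4 and 11.6 CPM at D/KO day 4 plus VC (log2 -1.66 ± 0.19, edgeR adjusted p = 1.7e-09). WT Notch3 fell from 35.3, 39.9 and 45.3 CPM to 24.6, 16.8 and 20.4 CPM (log2 -0.96 ± 0.18, edgeR adjusted p = 3.6e-05), but against day 0 without VC its change was -0.36 (edgeR adjusted p = 0.11). The WT day 2 plus VC call was lost against that baseline too (log2 -0.076, edgeR adjusted p = 0.78, in place of -0.68). In D/KO cells 4 of the 5 mural markers were lower and 1 higher at both day 2 and day 4 plus VC, with median log2 changes of -2.59 and -4.03, and their part in the Notch3 result was not tested. Dll1 was lower in both lines by day 2, with log2 changes of -2.23 ± 0.35 in D/KO and -2.78 ± 0.36 in WT cells (edgeR adjusted p = 1.7e-06 and 1.1e-07). WT Dll1 at day 4 plus VC was 6, 11 and 8 counts and D/KO Dll1 53, 35 and 37 counts, and the changes from day 0 differed by 2.41 ± 0.49 (edgeR adjusted p = 0.00028). D/KO Dll1 at day 4 plus VC was still below its day 0 plus VC level (log2 -0.89 ± 0.31, edgeR adjusted p = 0.014), a call lost without D/KO day 0 plus VC replicate 1 (0.082) or D/KO day 4 plus VC replicate 2 or 3 (0.058 and 0.057).

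Between the genotypes, 5 of the 10 changes differed at day 4 plus VC, 2 positive and 3 negative (29.4% of all genes called, 13.9% positive and 15.5% negative). At day 2 plus VC edgeR called only that of Jag1, in the negative direction (13.9%, 6.86% positive and the remaining 1109 of 15832 genes negative). DESeq2 called 2 there, both negative. The Notch4 difference at day 4 plus VC was 2.27 ± 0.38 (edgeR adjusted p = 2.1e-05), counted from day 0 plus VC, where D/KO Notch4 started lower. The one without VC was negative, but has another baseline. Against day 0 without VC the D/KO Notch4 change was -0.13 (edgeR adjusted p = 0.55). The genotype difference was not tested on that baseline. At day 4 plus VC Pecam1 differed by 4.54, Cdh5 by -2.07 and Tek by -0.74, and 5 of the 6 fibroblast markers were called negative. Their part was not tested. The Notch3 difference was -0.69 ± 0.26 (edgeR adjusted p = 0.038), and was lost in 8 of 12 fits that left out 1 library (edgeR adjusted p up to 0.16). The remaining call, of Dll4, rests on 0 to 9 counts in the WT libraries and has no interpretable size.

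Hes1 rose in every VC contrast from day 0. In D/KO cells it was 152, 153 and 87 CPM at day 2 plus VC and 86.3, 103 and 96.8 CPM at day 4 plus VC, against 43.5, 43.8 and 49.1 CPM at day 0 plus VC. Hes1 rose by 1.52 ± 0.19 and 1.07 ± 0.19 in log2 units (edgeR adjusted p = 2.9e-08 and 1.1e-05). WT Hes1 was highest at day 4 plus VC, at 121, 186 and 172 CPM (log2 1.60 ± 0.19, edgeR adjusted p = 1.2e-08). The genotype difference for Hes1 was not called with VC.

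Compared on the same day, VC left D/KO cells with less of 7 genes at day 2 and none higher (25.3% of all genes called, 11.1% higher and 14.2% lower), and with 2 higher and 1 lower at day 4 (34.5%, 16.8% higher and 17.7% lower). Notch4 was lower with VC at day 2 (log2 -0.65 ± 0.18, edgeR adjusted p = 0.005) and 4.53-fold higher at day 4 (log2 2.18 ± 0.18, edgeR adjusted p = 7.1e-12). Notch3 was lower with VC at all 3 days, by 1.04 to 1.14 on the log2 scale. With VC 5 of the 6 endothelial markers were lower and 1 higher at D/KO day 2, and 1 was lower and 1 higher at day 4, while 3 of 5 mural markers were lower at each day. Of the 6 fibroblast markers, 3 were higher and none lower at D/KO day 2, and 1 higher and 2 lower at D/KO day 4. In WT cells 5 were higher and none lower at day 2, and 5 higher and 1 lower at day 4. The part of these cells in the D/KO values, and in the WT values below, was not tested. Dll1 was 25, 10 and 11 counts with VC at D/KO day 2 against 131, 113 and 103 without (log2 -2.88 ± 0.34, edgeR adjusted p = 2.9e-08). In WT cells 1 gene was higher and 1 lower at day 2 (26.6%), and 3 higher and 3 lower at day 4 (22.4%, 10.4% lower). Both WT day 2 calls, Jag1 up and Dll1 down, were lost in 5 and 4 of 6 fits that left out 1 library (edgeR adjusted p up to 0.11 and 0.24), and without WT day 2 replicate 3 neither remained. At WT day 4, Jag1 (log2 0.82 ± 0.15, edgeR adjusted p = 8.8e-05) and Hes1 (0.94 ± 0.19, 0.00021) kept their calls without any 1 library. The other 4 did not, the calls of Dll1 and Jag2 being lost in 4 of 6 fits each (edgeR adjusted p up to 0.12 and 0.21), that of Notch2 without WT day 4 plus VC replicate 2 (0.095) and that of Hey1 without WT day 4 plus VC replicate 2 (0.052). Among D/KO cells the calls of Hey1 at day 2 and Jag2 at day 4 were lost in 4 and 3 of 6 fits (edgeR adjusted p up to 0.16 and 0.076).

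The ALK5 inhibitors each raised Hey1 and Notch3 and lowered Notch4 and Dll4. Repsox raised 2 genes and lowered 2 (25.2% of 15164 genes called, 13.4% higher and 11.8% lower), as did Vactosertib (22.1%, 11.8% higher and 10.3% lower). A83-01 raised 2 and lowered 3 (32.6%, 16.4% higher and 16.2% lower). With DMH-1 edgeR called none (9.75%, 5.96% higher and 3.79% lower), while DESeq2 called 1 higher. All 4 are compared with the same 3 control D/KO libraries.

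Hey1 was 2.04, 1.71 and 1.59 CPM in control libraries, 7.81, 9.08 and 7.66 CPM with Repsox, 6.79, 6.13 and 6.79 CPM with Vactosertib and 11.5, 8.47 and 9.39 CPM with A83-01. No treated library overlapped the controls, and the changes were 4.55-fold (log2 2.19 ± 0.27, edgeR adjusted p = 1.4e-05), 3.68-fold (1.88 ± 0.28, 9.2e-05) and 5.45-fold (2.45 ± 0.27, 2.6e-06). With DMH-1 it was 1.94, 0.99 and 1.84 CPM, which overlaps the controls.

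Notch3 was 24.6, 36.9 and 37.3 CPM in control libraries and 124, 48.2 and 112 CPM with Repsox (log2 1.52 ± 0.32, edgeR adjusted p = 0.0019). The low Repsox library, replicate 2, is the one with the low length balance. Notch3 was 103, 96.7 and 59.7 CPM with Vactosertib and 65.1, 90.1 and 76.7 CPM with A83-01 (log2 1.40 ± 0.32 and 1.23 ± 0.32, edgeR adjusted p = 0.0042 and 0.0064). With DMH-1 it was 48.5, 40.2 and 32.6 CPM and was not called (0.30 ± 0.32). All 3 calls held without any 1 library.

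Notch4 and Dll4 fell with each ALK5 inhibitor. Notch4 was 30.8, 32.4 and 33.6 CPM in control, 20.3, 11 and 16.8 with Repsox, 20.9, 19.9 and 18.7 with Vactosertib and 4.81, 5.23 and 4.1 CPM with A83-01. The changes were -1.01 ± 0.16, -0.69 ± 0.16 and -2.78 ± 0.17 in log2 units (edgeR adjusted p = 0.00014, 0.0042 and 2.4e-09). Dll4 was 12.1, 15.4 and 13.3 CPM in control libraries, 3.31, 2.59 and 3 with Repsox, 5.51, 4.05 and 4.86 with Vactosertib and 0.962, 1.03 and 0.517 CPM with A83-01. It was 4.58-fold, 2.82-fold and 16.2-fold lower (edgeR adjusted p = 6.5e-06, 0.00031 and 1.8e-08). In both genes no library treated with an ALK5 inhibitor overlapped the controls. With DMH-1 neither gene was called. Notch4 was 46.8, 42.9 and 40.9 CPM, above all controls (log2 0.43 ± 0.16, edgeR adjusted p = 0.093), and Dll4 was 16.1, 16.1 and 14.3 CPM, which overlaps them (0.20 ± 0.23, edgeR adjusted p = 0.7).

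Several marker lists moved in the same libraries. Of the endothelial markers, with Repsox 2 of 6 were higher and none lower, with Vactosertib 1 was higher and none lower, and with A83-01 4 were lower and 1 higher. Pecam1 stood at a mean of 96.8 CPM in control libraries, 97.2 with Repsox, 98.5 with Vactosertib and 42.6 with A83-01. Cdh5 stood at 132, 88.6, 96 and 36.5 CPM. The summed level of the 6 was 291 to 332 CPM in control, 229 to 374 with Repsox, 264 to 337 with Vactosertib and 142 to 181 CPM with A83-01. With Repsox and Vactosertib Cdh5 was not called, with log2 changes of -0.58 ± 0.30 and -0.45 ± 0.30, nor was Kdr (-0.53 ± 0.25 and -0.31 ± 0.25), and these estimates do not show that either gene held its level. With A83-01 Pecam1, Cdh5, Kdr and Emcn were lower.

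Sox10, a transcription factor of Schwann cells and melanocytes, stood at a mean of 3.63 CPM in control, 7.36 with Repsox, 6.96 with Vactosertib, 6.47 with DMH-1 and 10.2 CPM with A83-01, and no treated library overlapped the controls. The 6 fibroblast markers summed to 56571 to 61157 CPM in control, 24773 to 31844 with Repsox, 32687 to 35047 with Vactosertib, 42964 to 58139 with DMH-1 and 28162 to 30003 CPM with A83-01. Under each ALK5 inhibitor 3 of the 6 were lower and 1 higher. Of the mural markers, 1 was higher and 2 lower with Repsox and with Vactosertib, and 1 higher and 4 lower with A83-01. The part of any of these cells in the changes of Hey1, Notch3, Notch4 and Dll4 was not tested.

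Dll1 fell with A83-01 (log2 -0.92 ± 0.32, edgeR adjusted p = 0.035), a call that was lost in 5 of 6 fits that left out 1 library (up to 0.15) and in a fit of these groups only (0.051). Notch1, Notch2, Jag1, Jag2 and Hes1 were not called under any inhibitor, though a fit with the length balance, chosen after the data were seen, called more genes (7 of 10 with Repsox). Hes1 with DMH-1 was 68, 61.2 and 72.5 CPM against 54.8, 41.2 and 40.4 in control libraries (log2 0.57 ± 0.19, edgeR adjusted p = 0.073), so its groups did not overlap but it missed the threshold. DESeq2 called it (adjusted p = 0.038).

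**Figure D4:**
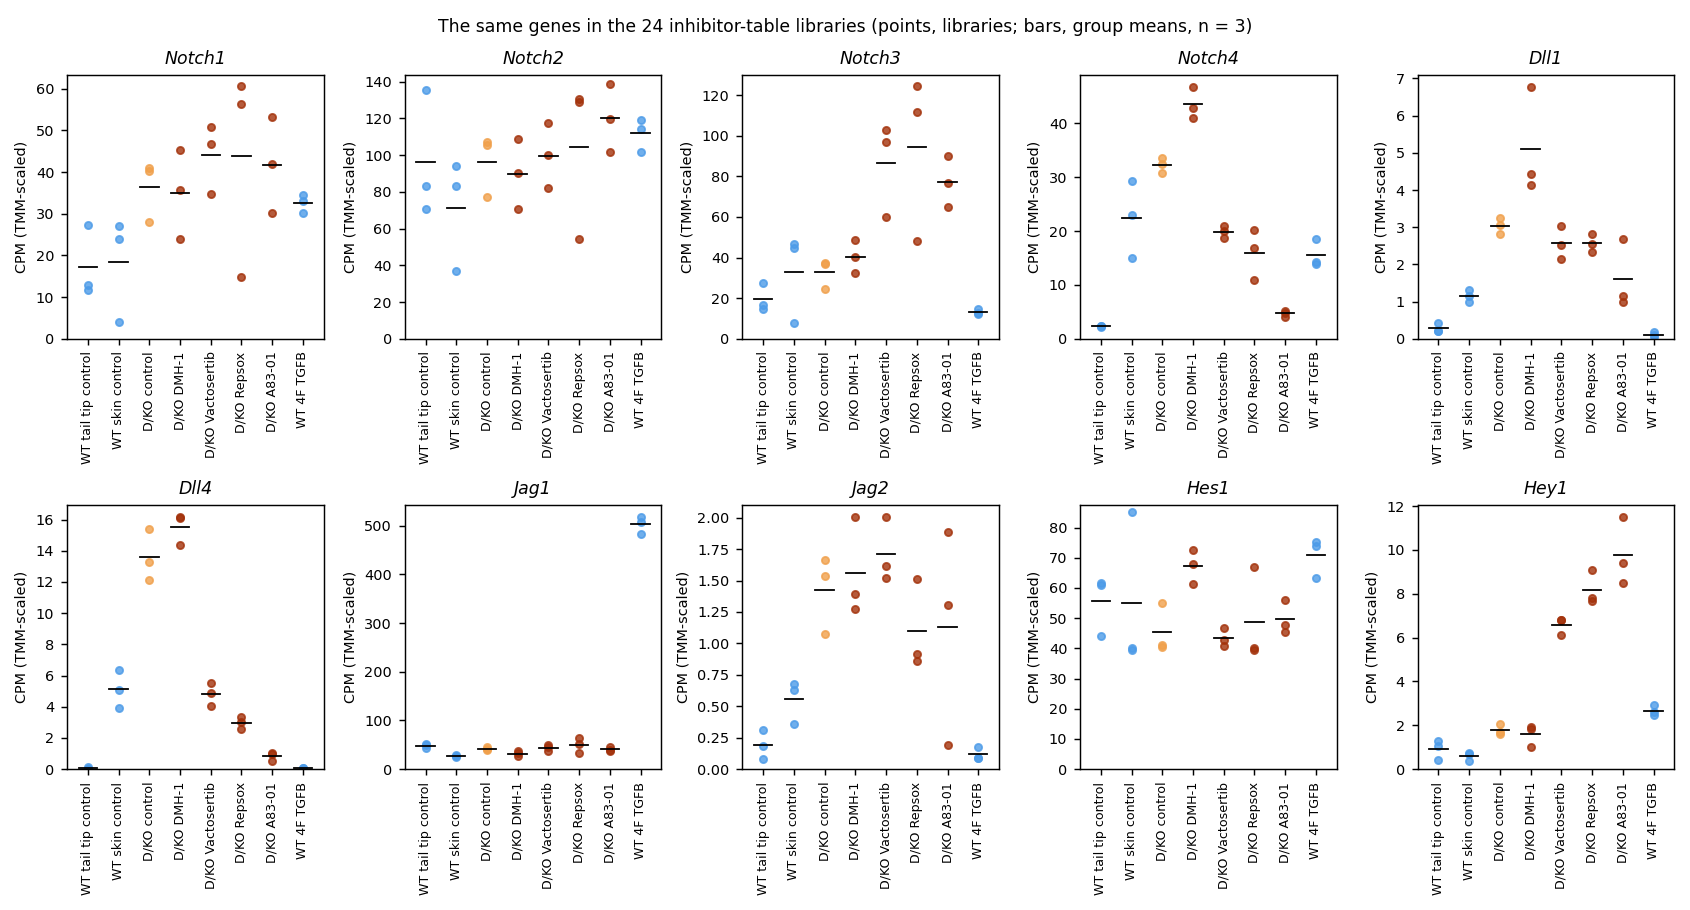
CPM of each of the 10 genes in the 24 libraries of the inhibitor table (points), with bars at group means (n = 3), for WT groups (blue), control D/KO cells (orange) and treated D/KO cells (dark red). Hey1 and Notch3 stand above control and Notch4 and Dll4 below it with Vactosertib, Repsox and A83-01, and Jag1 stands at 483 to 518 CPM in WT 4F TGFB.

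Compounds were compared in 2 pairs with equal dose and time. Repsox and Vactosertib differed in none of the 10 genes, and in 0 of all 15164 genes (edgeR adjusted p under 0.05, 452 genes at an unadjusted p under 0.05). The largest difference was in Dll4, lower with Repsox by 0.70 on the log2 scale, with a 95% interval from -1.25 to -0.15 that covers this gene alone. For Hey1 the interval was -0.21 to 0.82, and for Notch3 -0.53 to 0.78. A83-01 and DMH-1, which target different receptors, differed in 5 genes, 2 higher and 3 lower with A83-01 (25.4% of all genes called, 11.9% higher and 13.4% lower). Dll4 differed by -4.22 (95% interval -4.84 to -3.60), Notch4 by -3.21 (-3.58 to -2.84), Hey1 by 2.62 (2.05 to 3.20) and Dll1 by -1.68 (-2.33 to -1.02). Notch3 differed by 0.93 (0.27 to 1.59), and this call was lost in 4 of 6 fits that left out 1 library (edgeR adjusted p up to 0.13) and in the fit of all 24 libraries (0.15). Between A83-01 and DMH-1, 4 of the 6 endothelial markers were lower and 1 higher with A83-01. Of the 5 mural markers 3 were lower and 1 higher, and of the 6 fibroblast markers 4 were lower and 2 higher. Their part in these differences was not tested. A83-01 and Repsox were given at different doses, so their values are only set side by side above.

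The excess of Notch4, Dll4, Dll1 and Jag2 in D/KO cells was also present in the inhibitor table, whose D/KO and WT cells come from other mice. These differ in age as well (4 against 14 weeks), so genotype, age and donor mouse cannot be told apart in this table. There 5 of the 10 genes were higher in control D/KO than in control WT tail tip cells and none was lower (40.2% of all genes called, 21.3% higher and 18.9% lower). Notch4 was 30.8, 32.4 and 33.6 CPM against 2.35, 2.44 and 2.14 CPM (log2 3.81 ± 0.18, edgeR adjusted p = 6.9e-11). Dll4 was 285, 316 and 225 counts against 0, 0 and 4. Dll1 was 66, 63 and 55 counts against 6, 11 and 5 (log2 3.40 ± 0.40, edgeR adjusted p = 2.8e-06), and Jag2 39, 22 and 26 counts against 5, 8 and 2. Hey1 was higher too (log2 0.97 ± 0.31, edgeR adjusted p = 0.021), a call lost without WT tail tip control replicate 2 (0.076) or D/KO control replicate 1 (0.077). Of the 7 genes that were higher in D/KO cells of the reprogramming table, 3 were not called here. They were Notch1 (log2 1.08 ± 0.42, edgeR adjusted p = 0.052), Notch3 (0.76 ± 0.32, 0.069) and Jag1 (-0.19 ± 0.17, 0.4). Of the endothelial markers, 4 of 6 were higher in these D/KO cells and Tek was lower, and 4 of 5 mural markers were higher. Their part in the result was not tested.

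WT cells from skin also had more Notch4 and Dll4 than WT cells from tail tip, at the same genotype, sex and age. Of the 10 genes, 3 were higher and 1 lower in skin (34.2% of all genes called, 18.1% higher and 16.1% lower). Notch4 was 15, 29.2 and 23 CPM in skin and 2.35, 2.44 and 2.14 CPM in tail tip libraries, 9.68-fold apart (log2 3.27 ± 0.23, edgeR adjusted p = 6.7e-10). Dll4 was 88, 150 and 86 counts in skin, against 0, 0 and 4. Dll1 was 3.94-fold higher (log2 1.98 ± 0.41, edgeR adjusted p = 0.00067) and Jag1 1.76-fold lower (log2 -0.81 ± 0.16, edgeR adjusted p = 0.00054). Endothelial markers were higher in skin for 5 of 6, with Pecam1 at 62.8 against 13.3 CPM, and Tek was lower (log2 -2.03 ± 0.14, edgeR adjusted p = 4.5e-10). All 5 mural markers were higher in skin too, with a median log2 difference of 2.51. The part of these cells in the result was not tested. Notch1 was 4.16, 27 and 23.9 CPM in skin, the low value being that of replicate 1, whose length balance stood apart.

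**Figure D5:**
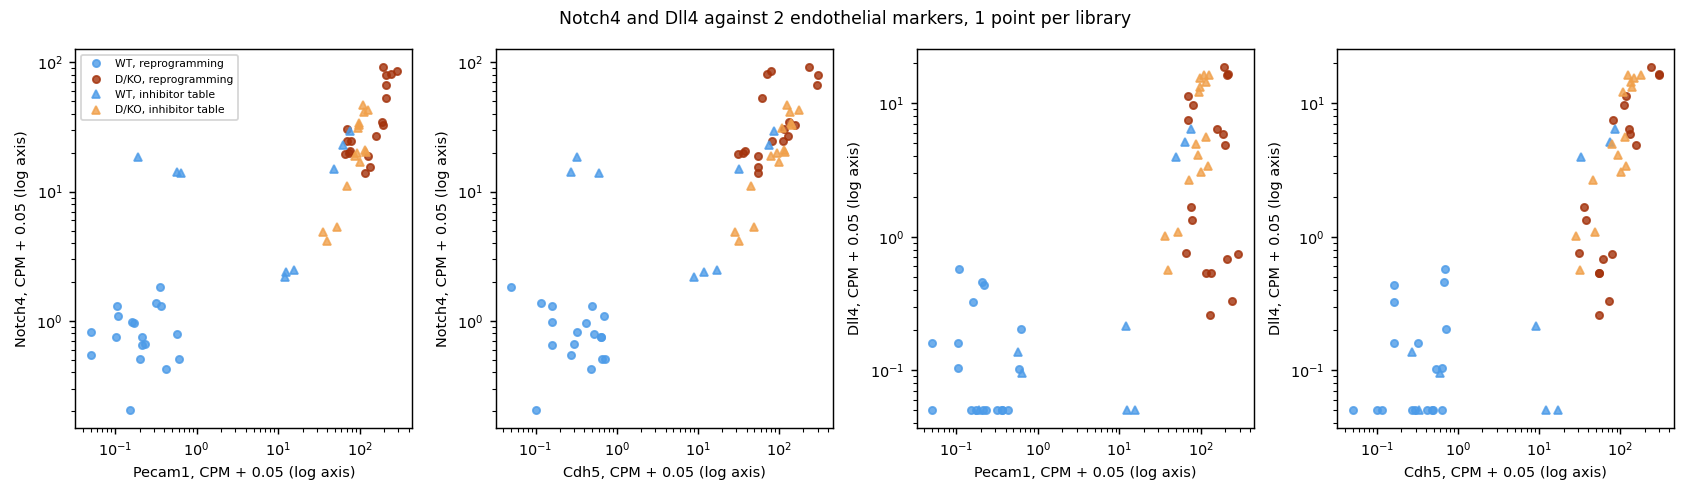
Notch4 (left pair) and Dll4 (right pair) against the endothelial markers Pecam1 and Cdh5, both as CPM + 0.05 on log axes, 1 point per library, for WT (blue) and D/KO cells (red or orange) of the reprogramming (circles) and inhibitor (triangles) tables. WT reprogramming libraries sit at the lower left of each panel, the 3 WT 4F TGFB libraries stand at 13.9 to 18.5 CPM of Notch4 with little Pecam1, and the lowest D/KO Dll4 values of the reprogramming table, at day 4, belong to groups with mean Pecam1 of 126 and 247 CPM, against 205 CPM at day 0, and mean Cdh5 of 55 and 70.8 CPM, against 279 CPM.

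The libraries labelled WT 4F TGFB stood apart in Jag1. It had 11540, 10477 and 11301 counts there, 507, 483 and 518 CPM, while every other library of the inhibitor table lay between 25.8 and 64 CPM. Per kilobase it stood at 86.2 CPM per kb, above Hes1 at 34.8. The same line in the reprogramming table, scaled separately, had 8.66 to 86.7 CPM. Dll1 (1, 2 and 4 counts), Dll4 (2, 0 and 1) and Jag2 (4, 2 and 2) were almost absent from these libraries. Notch4 was 14.2, 18.5 and 13.9 CPM. The endothelial markers summed to 1.48 to 1.97 CPM in these libraries, and the mural markers, mostly Cspg4, to 446 to 453 CPM, against at most 116 CPM in the other groups of the table. Heyl, another Hes-related target, was at a mean of 10.9 CPM, against 0.354 to 4.64 CPM in the other groups of that table. The fibroblast receptor Pdgfra was at 16.9 CPM, where the other groups of that table had means of 462 to 1252 CPM, while the 6 fibroblast markers together summed to 57754 to 61463 CPM, within the range of 24773 to 116620 CPM of the other libraries. No untreated cells of this line are in that table, so no test was made.

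Of 43 other genes of the pathway, 39 were tested, and called genes lay in both directions in nearly every contrast. The counts are to be read against the shares of all genes called, 37.0% for D/KO cells and 24.5% for WT cells at day 4, 54.1% and 44.7% for the same lines with VC, and 25.2% with Repsox, 22.1% with Vactosertib, 32.6% with A83-01 and 9.75% with DMH-1. At D/KO day 4, 4 were higher and 12 lower, with a median log2 change of -0.00064. At D/KO day 4 plus VC, 9 were higher and 16 lower. At WT day 4, 8 were higher and 5 lower, and at WT day 4 plus VC 8 higher and 10 lower. Repsox raised 7 and lowered 4, Vactosertib 8 and 3, A83-01 8 and 7, and DMH-1 raised 5 and lowered none. Several of these counts, such as 16 of 39 at D/KO day 4 and 11 of 39 with Repsox, lie near the share of all genes, and none is taken as a result about the pathway.

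Of these, 3 genes were called in the same direction in at least 6 of the 8 changes from day 0, a rule that 14.9% of all 15832 genes tested met. They are named as the pathway genes that met it, and their number is not a result about the pathway, since changes of a genotype share day 0 libraries. Lfng, a fringe glycosyltransferase that modifies Notch receptors, rose in all 8, by 1.00 to 1.94 on the log2 scale. Rbpj, the DNA-binding partner of Notch, fell in all 8, by 1.10 ± 0.10 at D/KO day 2 and by 0.52 ± 0.10 at WT day 2. Ncstn, a subunit of gamma-secretase, fell in 6, by 0.43 ± 0.07 at D/KO day 4. With the ALK5 inhibitors Lfng also rose (log2 1.26 to 1.39) and Rbpj fell (log2 -0.39 to -0.52), while neither was called with DMH-1.

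Another 3 genes were higher with all 4 inhibitors, as were 3.44% of all 15164 genes, and the 4 contrasts share their control libraries. Dlk1, a non-canonical ligand of the Delta family, rose by 3.44 ± 0.16 with Repsox, 3.24 ± 0.15 with Vactosertib, 3.82 ± 0.16 with A83-01 and 0.76 ± 0.15 with DMH-1. Its level went from 8.32 CPM to 118 CPM with A83-01 (group means), and was 4237 CPM in WT tail tip cells. Dtx2, a Deltex ubiquitin ligase, rose by 0.35 to 0.60, and Fbxw7, part of the ubiquitin ligase that degrades the Notch intracellular domain, by 0.38 to 1.30.

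Other Notch targets gave other values than Hes1. Hes5 and Hes7 had at most 0.106 CPM as a group mean and were not tested in the contrasts from day 0 or with inhibitors. In D/KO cells at day 4 Hey2 fell from 13.8 to 4.64 CPM (log2 -1.57 ± 0.24, edgeR adjusted p = 1.1e-06) and Nrarp, a feedback inhibitor of Notch, from 8.7 to 2.1 CPM (-2.05 ± 0.44, edgeR adjusted p = 0.00027). Heyl fell at D/KO day 2 (-1.04 ± 0.38) and was not called at day 4. With Repsox and Vactosertib Hey2 rose (0.93 ± 0.16 and 0.96 ± 0.16), while with A83-01 Hey2 (-0.51 ± 0.16), Heyl (-2.98 ± 0.43) and Nrarp (-1.66 ± 0.31) fell. Hey1 and Hey2, close relatives, were both higher with Repsox and Vactosertib, and with A83-01 Hey1 was higher and Hey2 lower.

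Over the 36 reprogramming libraries, the genes whose log2 CPM followed Notch4 most closely were Myct1 (Pearson r = 0.978) and Tie1 (0.97), both known from endothelial cells. Dll4 was followed most closely by Gimap5 (0.942) and Lyve1 (0.939), and Jag2 by Sox13 (0.953) and Podxl (0.938). Notch3 was followed by Ccn4 (0.911) and Il4ra (0.907), Jag1 by Ehbp1l1 (0.907) and Emilin2 (0.906), and Hes1 by Entpd2 (0.888) and the early response gene Dusp1 (0.887). For Notch1, Notch2, Dll1 and Hey1 the closest genes had r of 0.857, 0.814, 0.909 and 0.807. These points share 2 lines and a common treatment course. In the 24 inhibitor-table libraries r was 0.211 for Notch4 with Myct1 and 0.343 with Tie1. It was 0.822 and 0.902 for Dll4 with Gimap5 and Lyve1, and 0.686 and 0.773 for Jag2 with Sox13 and Podxl. For Notch3 it was -0.574 with Ccn4 and -0.666 with Il4ra. For Jag1 it was 0.768 with Ehbp1l1 and -0.791 with Emilin2, and for Hes1 -0.35 with Entpd2 and 0.0305 with Dusp1.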

How the data were processed

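RNA from mouse fibroblasts was read as polyA libraries in 150 bp paired-end mode. The authors trimmed reads with Trim Galore, checked them with FastQC, aligned them with HISAT2 to GRCm39 and deposited raw counts per gene from featureCounts, with exon lengths in the same tables. Tool versions, annotation release, strand setting and treatment of multimapping reads are not given in the sources used here.

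Counts were tested with edgeR 4.0.16 (R 4.3.3, limma 3.58.1): TMM scaling, filterByExpr (min.count 10, min.total.count 15), quasi-likelihood fits, and Benjamini-Hochberg adjustment over all genes of a contrast with a threshold of 0.05. The reprogramming fit held 36 libraries and 15832 genes, the inhibitor fit 18 libraries and 15164 genes, and the skin contrast all 24 libraries and 15652 genes. The 2 tables were scaled separately. Values after ± in tests are standard errors, in levels SDs over 3 libraries. CPM per kb divides by the deposited exon length.

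The members, marker and pathway lists were chosen with earlier results of these data known. Pathway genes were named where called in 1 direction in at least 6 of 8 changes from day 0 or in all 4 inhibitor contrasts, and for each member the 2 genes with the highest Pearson r of log2 CPM (prior count 2). Dll4 in WT cells, at 0 to 9 counts, is given without folds. Some genes, and the summed Schwann cell list, are not reported here. Scripts were tested on simulated data. Alternatives were DESeq2 1.42.0, its size factors, no filter, other sample sets, another baseline, subtraction of the median change, and each library left out.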

Additional observations from a re-analysis of the deposited data

Results flagged for a closer look

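The genotypes' responses differed, by a test of the difference itself in edgeR (D/KO change minus WT change on the log2 scale, 3 libraries per group), in the following genes. At day 4 the difference was -1.62 for Notch1, -1.63 for Notch3, -1.72 for Notch4, -1.42 for Jag1 and 0.78 for Hes1. At day 2 it was -0.75 for Jag1. With VC it was -0.91 for Jag1 at day 2, and -0.69 for Notch3, 2.27 for Notch4, 2.41 for Dll1 and -1.11 for Jag1 at day 4. The differences with VC are counted from day 0 plus VC. Against day 0 without VC the D/KO Notch4 change at day 4 plus VC was -0.13 and was not called. For the effect of VC at day 0 the difference was -1.32 for Notch1, -1.64 for Notch3, -2.66 for Notch4, -1.53 for Dll1 and -0.82 for Jag1. Of these, the call was lost for Hes1 at day 4 in 9 of 12 fits that left out 1 library, for Notch4 at day 4 in 1 of 12 (without WT day 4 replicate 2, -1.21), for Jag1 at day 2 in 7 of 12 and for Notch3 at day 4 plus VC in 8 of 12. Genotype, line, sex, age and the Oct4-GFP allele change together between these cells and cannot be told apart.

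Jag1 had a mean of 503 CPM in the 3 WT 4F TGFB libraries, which enter no comparison, against 25.8 to 64 CPM in the other libraries of the table.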

How the results depend on the processing

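Of 280 tests of the 10 genes in 28 contrasts, 126 were called. DESeq2 kept all 126 calls and gained 9, its size factors kept 124, no filter on low counts 122, and a fit of only the groups compared 116 of 122. Subtracting the median change of all genes kept 126. A length balance covariate, chosen after the data were seen, kept 122 and gained 42. Leaving out each library in turn, 97 of 126 calls held in every fit and 29 were lost in at least 1. In the inhibitor table, 22 of 23 calls held with all 24 libraries.

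Counts of called genes that moved by more than 1.5 times were as follows, and the cause was not tested. With the length balance covariate the count was 1 at WT day 2, 4 for VC at WT day 2, 3 for the genotype difference at day 2 and 2 at day 2 plus VC, 7 with Repsox, 8 with Vactosertib, 5 with DMH-1, 8 for A83-01 minus DMH-1, 8 for D/KO against WT in the inhibitor table and 7 for skin. For the genotype difference, DESeq2 gave 2 at day 2 and 2 at day 2 plus VC, and its size factors and no filter each gave 2 at day 2. For DMH-1, DESeq2 and no filter each gave 1 and the groups compared alone gave 3. Leaving out 1 library, the count was 1 to 2 at WT day 2, 3 to 5 at WT day 4, 2 to 6 for VC at WT day 0, 0 to 2 for VC at WT day 2, 3 to 7 for VC at WT day 4, and 0 to 2 at day 2 and 3 to 6 at day 4 for the genotype difference.

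With day 0 without VC as baseline, 18 of 24 calls of the VC arms held and 4 turned: Notch4 at D/KO day 4 plus VC (-0.13), Jag1 at D/KO day 2 (-0.25) and day 4 (-0.17) plus VC and Dll4 at WT day 4 plus VC (-0.045, on 0 to 9 counts), none of them called. Of 200 group means, 30 moved by over 1 SD without TMM. No paired analysis was possible because the labels give no replicate numbers that tie libraries across groups, the numbers used here being in accession order.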
